A study of Mus musculus with 6 samples.

Results

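The SWI/SNF or BAF complex is a chromatin remodeller, a machine that uses ATP to slide or evict nucleosomes and so opens DNA to transcription factors. The transcripts of 10 of its subunit genes, Smarca2, Smarca4, Smarcb1, Smarcc1, Smarcc2, Smarcd1, Smarcd3, Smarce1, Arid1a and Arid1b, are described here in mouse embryonic stem (ES) cells with and without Dicer. Members were all probe sets, groups of short probes that read 1 transcript, whose platform annotation named exactly 1 gene that is among these 10. The rule gave 21 of the 45101 probe sets on the array, and 10 of the 18194 genes named by single-gene probe sets. There were 7 genes with several probe sets and 3 with 1.

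Dicer is the enzyme that trims hairpin precursors into mature microRNAs, and the series asked how transcripts differ when it is missing. The heterozygous line, Dicer +/- (D4), and the null line, Dicer -/- (27H), were each measured on 3 arrays of undifferentiated cells. The labels name no treatment, time point, parent strain or deleted exon. Each genotype is 1 cell line, so genotype and line cannot be told apart. Separate cultures are not stated for the replicates, and p-values then cover no more than the spread among 3 arrays, which may be technical.

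Each BAF complex holds 1 ATPase, either Smarca4 (BRG1) or Smarca2 (BRM), on a scaffold of Smarcc1 (BAF155) and Smarcc2 (BAF170), with 1 protein of the Smarcd (BAF60) family and 1 of the Arid1 (BAF250) family. ES cells are known for a form called esBAF, built on Smarca4, Smarcc1, Smarcd1 and Arid1a and poor in Smarca2, Smarcc2 and Smarcd3; exchange of these alternative subunits accompanies differentiation. Members of the miR-290 and miR-302 families, made by Dicer and abundant in ES cells, share a seed, the stretch that pairs with target transcripts, and in human ES cells SMARCC2 has been described as a target of miR-302.

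The mature sequences of 5 of these microRNAs are shown for that link, from RefSeq on build GRCm38.p6, with the seed, bases 2 to 8, in capitals; the arrays did not measure them.
mmu-miR-291a-3p: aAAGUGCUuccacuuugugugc
mmu-miR-294-3p: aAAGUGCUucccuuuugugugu
mmu-miR-295-3p: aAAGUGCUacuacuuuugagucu
mmu-miR-302b-3p: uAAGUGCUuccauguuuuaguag
mmu-miR-302d-3p: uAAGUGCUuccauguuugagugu
All 5 carry the seed AAGUGCU. The first 3 lie on chromosome 7 and the last 2 on chromosome 3. Whether the member transcripts hold matching sites was not examined here.

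Intensities are in arbitrary units, and levels of different probe sets are not read as relative amounts of transcript. They serve only to pick the brightest probe set of a gene and to sum lists of markers. The share of probe sets at or above 32 units ran from 56.9% to 60.3% over the 6 arrays, and the median from 44.9 to 46.5 units in the null arrays and from 49.1 to 52.7 in the heterozygous arrays. Pearson correlations between arrays, across probe sets, lay at 0.957 to 0.964 for arrays of the same line and at 0.918 to 0.924 for arrays of different lines. Dicer1 (probe set 1427941_at) averaged 1098 ± 39.2 units over heterozygous and 1197 ± 62.2 over null arrays (SD, n = 3; log2 difference 0.12, limma adjusted p 0.264). The deleted part of the gene is not given, and a probe set outside it checks nothing.

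A probe set was tested if it reached a log2 intensity of 5, or 32 units, in at least 3 of the 6 arrays; 17 of the 21 did and 4 did not. "Higher" and "lower" in null cells stand for a limma p under 0.05, adjusted over all 26545 probe sets tested, and differences are null minus heterozygous on the log2 scale. Where genes are counted, the adjustment is over all genes tested instead. Of the 17, 3 were higher, 8 were lower and 6 did not pass. Over all tested probe sets, 18.9% were higher and 21.2% lower. With a further limit of 2-fold, 1 member probe set was higher and 2 were lower, against 5.97% and 6.31% of all. The 3 arrays of one line did not overlap those of the other in 3 member probe sets with null cells above and 8 with null cells below, against 23.6% and 27.7% of all. The median log2 difference was -0.07 over the 17 and -0.06 over all probe sets tested. Centring each array on its own median left the 3 higher probe sets and 5 lower ones, and moved the median difference of all genes from -0.01 to 0.14.

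**Figure D1:**
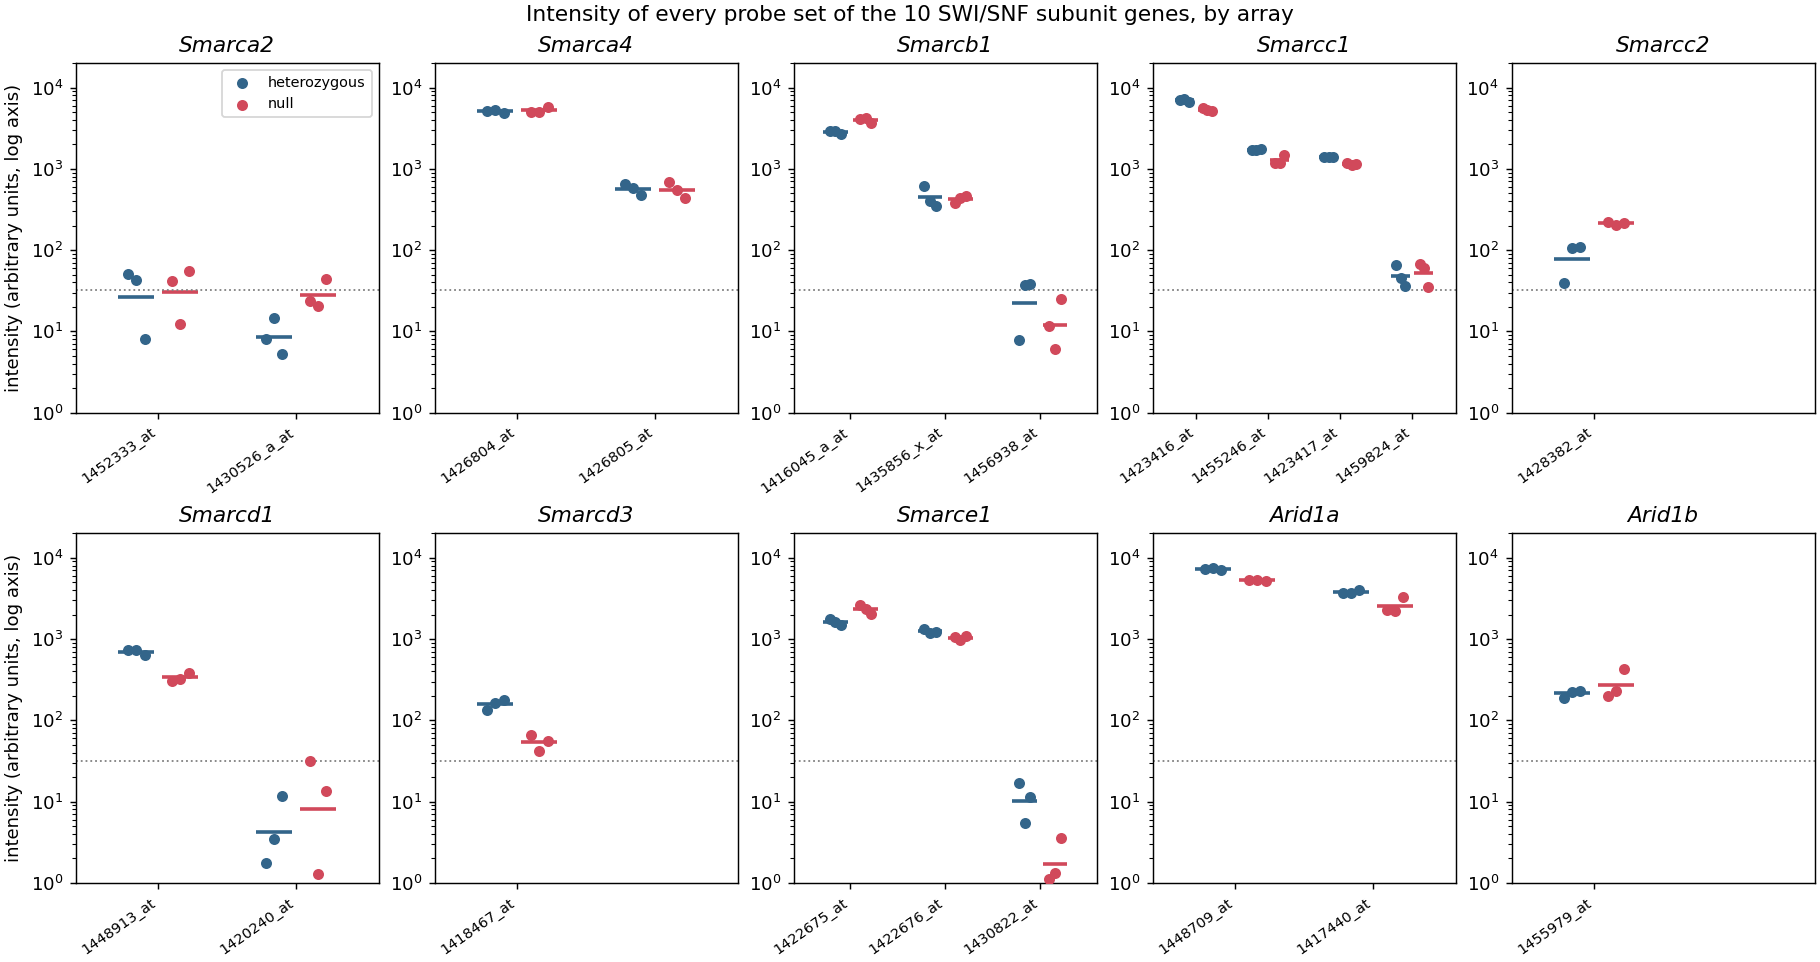
Intensity of all 21 probe sets of the 10 genes, on a log axis in arbitrary units. Points are arrays, 3 heterozygous in blue and 3 null in red, the horizontal bars are means of log2 values, and the dotted line marks 32 units; Smarcc2 sits higher and Smarcd1 and Smarcd3 sit lower in every null array than in any heterozygous array.

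The scaffold subunits moved in opposite directions. Smarcc2, chromosome 10, rose in null cells. Its only probe set, 1428382_at, read 39.9, 105.7 and 108.1 units in the heterozygous arrays and 218.8, 205.9 and 218.4 in the null arrays. The null arrays lie close together and all above the heterozygous ones, of which replicate 1 is far below the others. That array is near the 32-unit level of the filter. The mean went from 84.6 ± 38.7 to 214 ± 7.34 (SD, n = 3), 2.78-fold, a log2 difference of 1.48 (SE 0.34, 95% interval 0.71 to 2.24, limma adjusted p 0.00605). Without heterozygous replicate 1 the difference was 1.003. In bulk cells a change in how many cells make a transcript and a change in the amount per cell cannot be told apart, here or in what follows.

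Smarcc1, chromosome 9, the partner of Smarcc2 and the main scaffold of esBAF, fell in 3 of its 4 probe sets. Probe set 1423416_at read 7099, 7314 and 6716 units in heterozygous arrays and 5654, 5258 and 5105 in null arrays. The lines do not overlap, and the lowest heterozygous array stands above the highest null array. The means were 7043 ± 303 and 5339 ± 283 (SD, n = 3), 1.32-fold lower, a log2 difference of -0.40 (SE 0.07, 95% interval -0.55 to -0.25, limma adjusted p 0.000784). Probe set 1455246_at gave 1712, 1724 and 1731 against 1177, 1176 and 1488 units, with null replicate 3 nearest the heterozygous arrays. Its log2 difference was -0.44 (limma adjusted p 0.00553). Probe set 1423417_at gave 1411, 1402 and 1415 against 1186, 1125 and 1160 units, again without overlap. Its log2 difference was -0.28 (limma adjusted p 0.0116). The fourth, 1459824_at, ran from 34.7 to 68.0 units over all 6 arrays with the lines overlapping, and its 95% interval of -0.81 to 1.05 takes in the other 3 values. With arrays centred on their medians, 1455246_at (-0.28, adjusted p 0.0564) and 1423417_at (-0.13, adjusted p 0.268) no longer passed.

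The Smarcd family links the complex to transcription factors, and Smarcd1 and Smarcd3 were lower in null cells past 2-fold, while Smarcd2, described with the other subunits, was higher. Smarcd1 (BAF60a), chromosome 15, read 729, 723 and 642 units in heterozygous and 308, 324 and 383 units in null arrays with probe set 1448913_at. All null arrays are well under the heterozygous ones, and null replicate 3 is the highest of them. The means were 698 ± 48.2 and 338 ± 39.3 (SD, n = 3), 2.07-fold lower, a log2 difference of -1.05 (SE 0.12, 95% interval -1.31 to -0.78, limma adjusted p 6.4e-05). The difference lay under 2-fold without null replicate 1 (-0.98) and when each array was centred on its median (-0.89), and passed the p threshold in each. Its second probe set, 1420240_at, was under 32 units in every array, from 1.30 to 31.3, and was not tested.

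Smarcd3 (BAF60c), chromosome 5, known for its part in heart and muscle development, has the single probe set 1418467_at. It read 134.0, 163.9 and 179.7 units in heterozygous arrays and 66.9, 41.6 and 55.1 in null arrays. The lowest heterozygous array stands above the highest null array. The means were 159 ± 23.2 and 54.5 ± 12.6 (SD, n = 3), 2.95-fold lower, a log2 difference of -1.56 (SE 0.26, 95% interval -2.14 to -0.98, limma adjusted p 0.000806), with the null arrays near the 32-unit level of the filter.

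The Arid1 subunits carry a DNA-binding domain and define the canonical BAF complex. Arid1a (BAF250a), chromosome 4, the form known for esBAF, fell in both of its probe sets. Probe set 1448709_at read 7285, 7567 and 7052 units in heterozygous and 5287, 5339.5 and 5137 units in null arrays. The null arrays are tightly grouped under the heterozygous ones. The means were 7301 ± 258 and 5255 ± 105 (SD, n = 3), 1.39-fold lower, a log2 difference of -0.47 (SE 0.06, 95% interval -0.61 to -0.34, limma adjusted p 0.000133). Probe set 1417440_at gave 3653, 3661 and 4041 against 2302, 2206 and 3280.03 units. Here null replicate 3 stands well above the other null arrays but under every heterozygous array. Its log2 difference was -0.57 (SE 0.13, limma adjusted p 0.0062), and its adjusted p was 0.0589 under eBayes without an intensity trend.

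Arid1b (BAF250b), chromosome 17, the alternative to Arid1a, did not pass the test. Its probe set 1455979_at read 190.5, 224 and 232 units in heterozygous and 196.5, 231 and 425 units in null arrays. The lines overlap, and only null replicate 3 lies above the range of the heterozygous arrays. The log2 difference was 0.32 (SE 0.25, 95% interval -0.24 to 0.88, limma adjusted p 0.345), and -0.01 without null replicate 3.

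Of the ATPases, Smarca4, chromosome 9, did not pass in either probe set. Probe set 1426804_at read 5079, 5352 and 4846 units in heterozygous and 4951, 4940.5 and 5837 units in null arrays. The lines overlap, and null replicate 3 is the highest array. The log2 difference was 0.04 (SE 0.08, limma adjusted p 0.738), with a 95% interval of -0.14 to 0.22. Probe set 1426805_at ranged from 471 to 654 units in heterozygous and from 435 to 695 in null arrays, a log2 difference of -0.04 with an interval of -0.43 to 0.35 (limma adjusted p 0.869).

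Smarca2, chromosome 19, the ATPase that esBAF lacks, was near the filter level. Probe set 1452333_at read 50.6, 43.4 and 8.16 units in heterozygous and 41.2, 12.3 and 55.6 units in null arrays. Both lines hold arrays above and under 32 units, so the spread spans the difference (log2 difference 0.22, 95% interval -1.72 to 2.15, limma adjusted p 0.87). Probe set 1430526_a_at, with 1 array above 32 units, was not tested and read 7.95, 14.6 and 5.23 against 23.4, 20.7 and 43.9 units.

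Smarcb1 (SNF5), chromosome 10, a core subunit that holds the nucleosome and a tumour suppressor in humans, was higher in 1 of its probe sets. Probe set 1416045_a_at read 2952, 2926 and 2683 units in heterozygous and 4151, 4169.7 and 3654 units in null arrays. Every null array lies above every heterozygous array, and null replicate 3 is the lowest of them. The means were 2854 ± 149 and 3991 ± 293 (SD, n = 3), 1.40-fold, a log2 difference of 0.48 (SE 0.08, 95% interval 0.31 to 0.65, limma adjusted p 0.000622). Probe set 1435856_x_at overlapped between lines, at 352 to 619 units in heterozygous and 378 to 459.9 in null arrays, with a log2 difference of -0.07 (95% interval -0.50 to 0.35, limma adjusted p 0.791). The suffix _x_at marks probes that may also bind other transcripts, and _a_at marks probes shared by alternative transcripts of the gene. The mean of these probe sets gave 0.20 for the gene (limma adjusted p 0.171). Probe set 1456938_at, at 6.08 to 38.1 units, was not tested.

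Smarce1 (BAF57), chromosome 11, an HMG-box DNA-binding subunit, gave opposite results in its tested probe sets. Probe set 1422675_at read 1787, 1642 and 1494 units in heterozygous and 2594, 2372 and 2009 units in null arrays, without overlap. Its log2 difference was 0.50 (SE 0.11, 95% interval 0.26 to 0.73, limma adjusted p 0.00359). Probe set 1422676_at read 1311, 1196 and 1219 against 1045, 986 and 1092 units, with every null array under every heterozygous array. Its log2 difference was -0.25 (SE 0.08, 95% interval -0.44 to -0.07, limma adjusted p 0.0337). That second call held in 9 of 16 alternative analyses; the first held in all 16. The mean of these probe sets gave 0.12 for the gene (limma adjusted p 0.218). The third, 1430822_at, read under 32 units in every array, from 1.13 to 17.0, and was not tested. The median log2 difference of the 1097 tested genes of chromosome 11 was 0.29, and Smarce1, taken at its brighter probe set, stood 0.21 above it. The medians of the other chromosomes that carry members lay between -0.11 and -0.02.

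**Figure D2:**
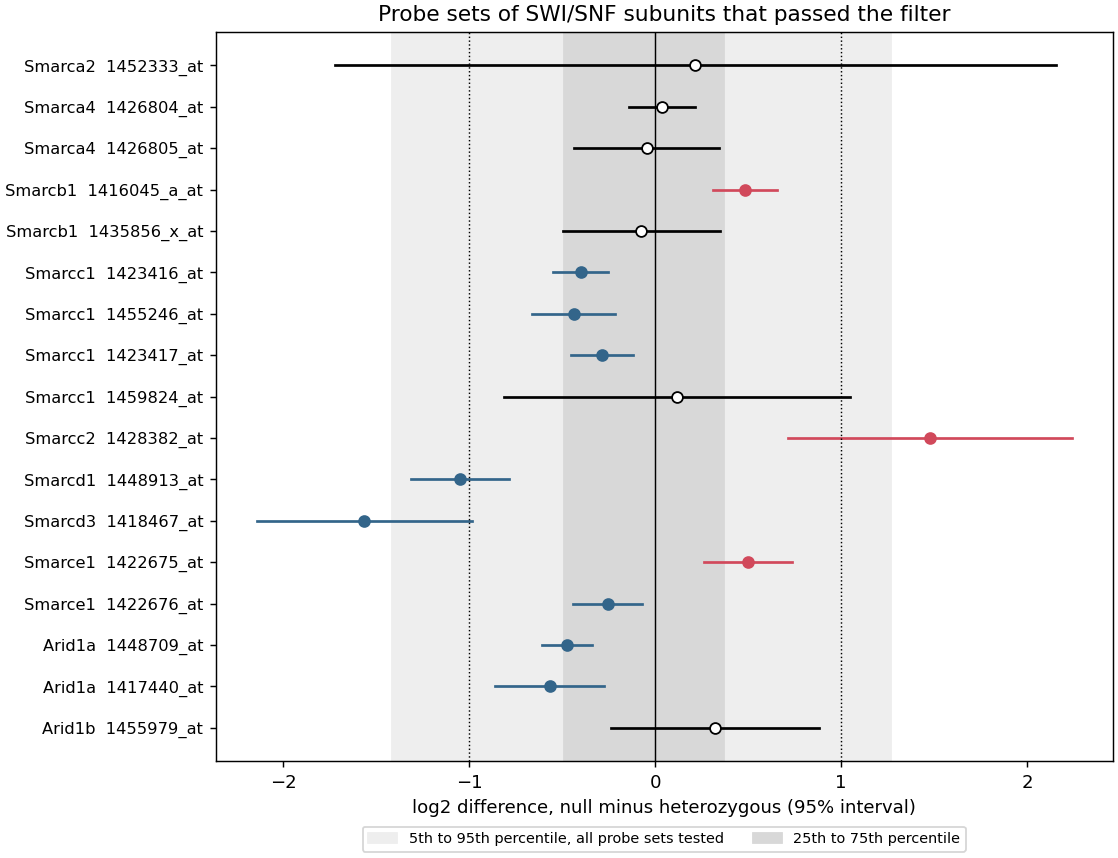
Log2 difference, null minus heterozygous, of the 17 tested probe sets with 95% intervals. Red points passed the adjusted p as higher and blue points as lower, open points did not pass, grey bands give the spread of all tested probe sets and dotted lines mark 2-fold; only Smarcc2, Smarcd1 and Smarcd3 lie beyond 2-fold.

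With each gene taken at its brightest probe set, 3 of the 10 genes were higher (Smarcc2, Smarcb1, Smarce1) and 4 lower (Smarcd3, Smarcd1, Arid1a, Smarcc1), against 24.5% and 24.3% of the 12927 genes tested. Past 2-fold, 1 was higher and 2 were lower, against 7.23% and 6.20%. The median log2 difference was 0.13 over the 10 genes and -0.01 over all genes. Of the 4 subunits that define esBAF in the textbook account, Smarcd1, Arid1a and Smarcc1 were lower and Smarca4 did not pass. Of the 3 that it is said to lack, Smarcc2 was higher, Smarcd3 lower and Smarca2 did not pass. Null replicate 3 was the null array nearest the heterozygous mean in 6 of the 11 member probe sets that passed, replicate 1 in 3 and replicate 2 in 2. Over all 10634 probe sets that passed, these shares were 36.6%, 33.5% and 29.9%.

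The ratio of alternative subunits within each array was compared between lines for 4 pairs by an exact two-sided permutation test over arrays, for which 3 against 3 cannot give a p under 0.1. The log2 ratio of Smarcc2 to Smarcc1 was 1.88 higher in null cells, a change of 3.67-fold, with all 3 null arrays above all heterozygous arrays (exact p 0.1, adjusted over the 4 pairs 0.2). The change was 1.40 without heterozygous replicate 1. The ratio of Arid1b to Arid1a was 0.80 higher, 1.74-fold, also without overlap (exact p 0.1, adjusted 0.2), and 0.45 higher without null replicate 3. The ratio of Smarcd3 to Smarcd1 changed by -0.51, with the lines overlapping (exact p 0.2, adjusted 0.267). The ratio of Smarca2 to Smarca4 changed by 0.18 (exact p 0.8, adjusted 0.8) and turned in sign with values under 32 raised to 32 (-0.02) and without heterozygous replicate 3 (-0.63), null replicate 1 (-0.08) or null replicate 3 (-0.18). None of the 4 passed a threshold of 0.05.

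**Figure D3:**
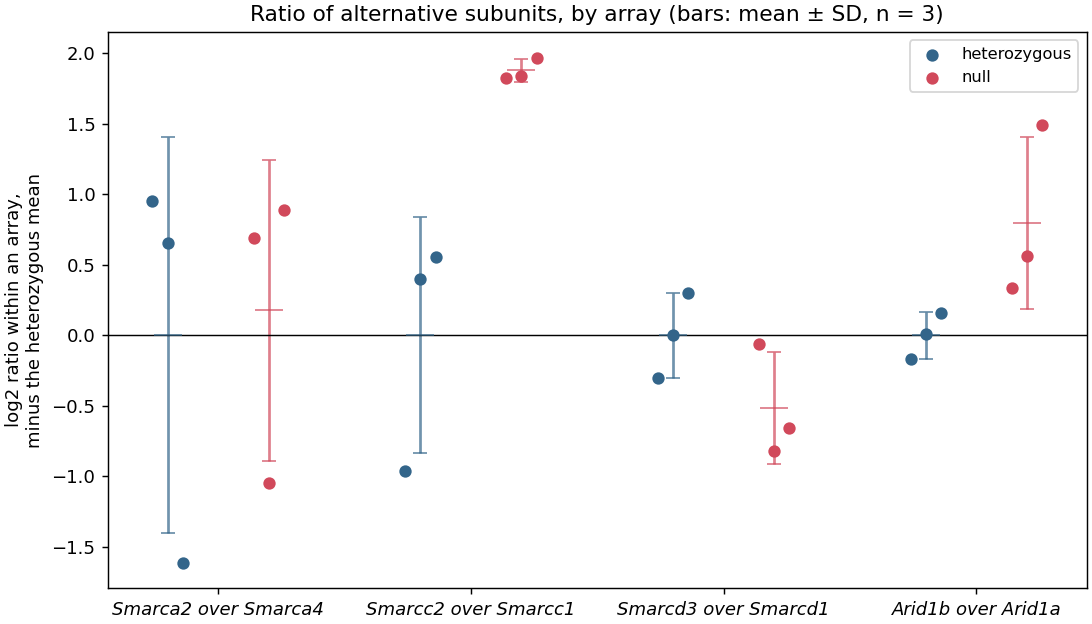
Log2 ratio of the brightest probe sets of 4 pairs of alternative subunits in each array, less the heterozygous mean of that pair. Points are arrays, blue heterozygous and red null, and bars are the mean ± SD of 3 arrays; the null arrays stand apart from the heterozygous ones for Smarcc2 over Smarcc1 and Arid1b over Arid1a, and overlap them for the other pairs.

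Upstream sequence was available from RefSeq (GRCm38.p6) as 10 promoters of 9 of the members, of which the 250 bases before the start were examined. All 10 had a CpG ratio, observed over expected, of at least 0.6, against 62.3% of the 13373 promoters of tested genes. They held 18 to 40 CpG, against a median of 15. The GC box GGGCGG, searched on both strands and itself holding a CpG, occurred in 9 of 10, against 56.6%; the exception was Smarcc2. The promoters of the scaffold pair that moved in opposite directions are shown with every CpG in capitals, Smarcc2 at chr10:128458986-128459235 and Smarcc1 at chr9:110131774-110132023, each on the plus strand.
Smarcc2: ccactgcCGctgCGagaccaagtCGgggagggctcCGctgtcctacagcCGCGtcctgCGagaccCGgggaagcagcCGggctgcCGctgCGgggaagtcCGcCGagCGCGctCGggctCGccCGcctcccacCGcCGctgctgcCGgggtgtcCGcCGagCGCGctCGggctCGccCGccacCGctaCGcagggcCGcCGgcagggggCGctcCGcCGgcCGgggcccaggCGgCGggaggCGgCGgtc
Smarcc1: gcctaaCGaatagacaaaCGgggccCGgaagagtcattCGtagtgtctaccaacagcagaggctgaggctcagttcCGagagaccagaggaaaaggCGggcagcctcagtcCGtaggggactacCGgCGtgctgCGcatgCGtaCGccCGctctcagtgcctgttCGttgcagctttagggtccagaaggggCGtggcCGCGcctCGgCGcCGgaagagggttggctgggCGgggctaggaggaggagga
Smarcc2 holds 40 CpG in 80.8% G+C and Smarcc1 holds 21 in 63.6%. No methylation or binding was measured in this series, and these are descriptions of the letters alone.

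Of 21 other genes of the BAF, PBAF and ncBAF complexes, 20 were tested, 6 were higher and 4 lower at the gene level, and 1 in each direction passed 2-fold. Over all genes 24.5% were higher and 24.3% lower, and 7.23% and 6.20% past 2-fold, so the count of those called is near the share over all genes. Their median log2 difference was -0.05. With arrays centred on their medians the split was 8 higher and 2 lower. The largest change was in Bcl11a, a zinc-finger protein of lymphoid and neural cells described as a BAF subunit, which read 111.9, 60.9 and 78.3 units in heterozygous and 684, 598 and 451 units in null arrays. Every null array stood far above the highest heterozygous one. Its log2 difference was 2.81 (SE 0.23, limma adjusted p over genes 2.23e-06), and it lies 2.52 above the median of its chromosome, 11. Dpf1 (BAF45b), a subunit of the neuronal complex, was lower, from 234 ± 17.0 to 96.3 ± 14.2 units (SD, n = 3; log2 difference -1.29, limma adjusted p 0.000142). Another neuronal subunit, Ss18l1 (CREST), was higher, from 71.2 ± 10.4 to 128 ± 6.96 units (log2 difference 0.86, limma adjusted p 0.0104). The neuronal actin-like subunit Actl6b was under 32 units in 5 of 6 arrays and was not tested, and Dpf3 (BAF45c) did not pass (-1.23, 95% interval -3.19 to 0.74). Of these 4 neuronal genes, 1 was thus higher and 1 lower.

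Smarcd2 (BAF60b), the remaining member of the Smarcd family and known for granulocyte development, was higher where Smarcd1 and Smarcd3 were lower. Its brightest probe set read 1488, 1892 and 1661 units in heterozygous and 3004, 2743 and 3550.05 units in null arrays, without overlap. The log2 difference was 0.88 (SE 0.11, limma adjusted p 4.98e-05), which is 0.59 above the median of chromosome 11, where it also lies. Its other probe sets gave 0.48 (limma adjusted p 0.00407) and -0.34 (0.287), so they differ in sign and the second did not pass.

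Among subunits of the related complexes, Arid2, which takes the place of Arid1 proteins in PBAF, was lower (log2 difference -0.57, limma adjusted p 0.000187), with 3 of its 4 probe sets lower. Brd9, a bromodomain subunit of ncBAF, was higher (0.44, limma adjusted p 0.000971). Actl6a (BAF53a), the actin-like subunit of dividing cells, was lower (-0.30, limma adjusted p 0.0075), with another of its probe sets at -1.58. It did not pass with arrays centred on their medians (-0.14, adjusted p 0.181). Bcl7b was higher by 0.30 at the gene level (limma adjusted p over genes 0.0467), and its call held in 9 of 17 alternative analyses. Its only probe set did not pass when adjusted over probe sets (limma adjusted p 0.0653). The same held for Ss18, counted as higher over genes (limma adjusted p 0.0495) but not over probe sets (0.0655 at its brightest). Dpf2 (BAF45d) did not pass (0.07, 95% interval -0.07 to 0.21).

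**Figure D4:**
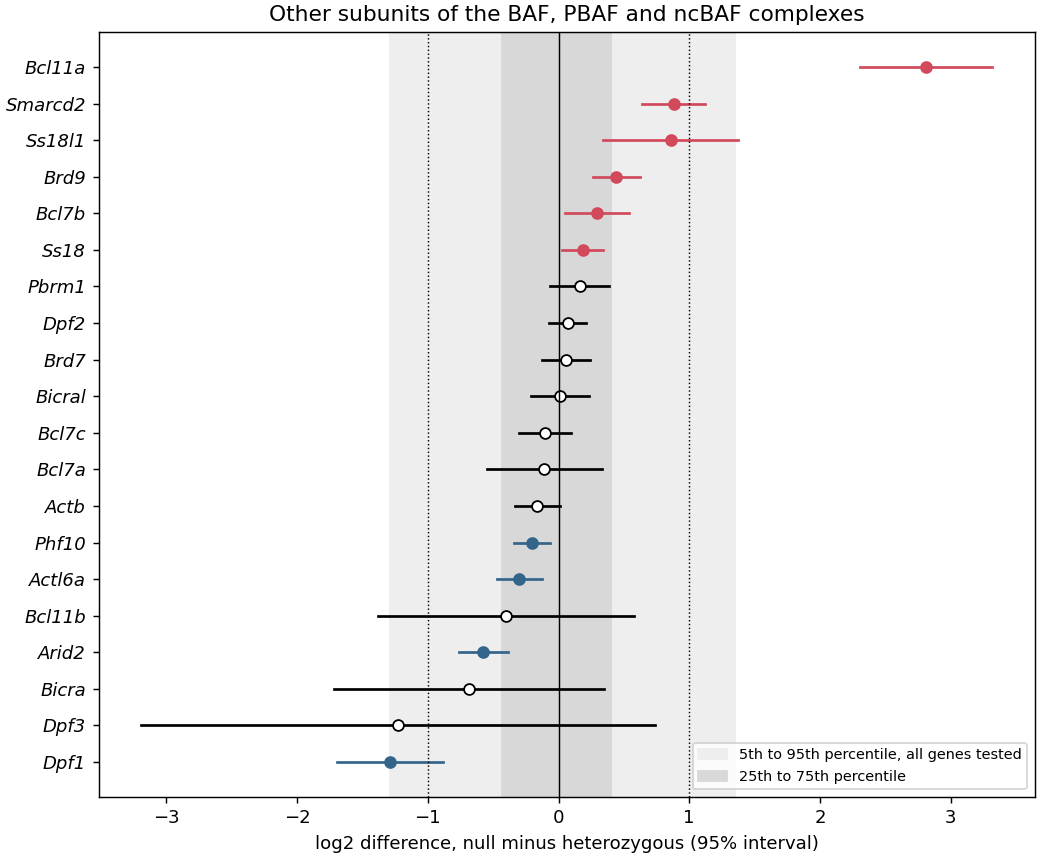
Log2 difference, null minus heterozygous, with 95% intervals, of the 20 tested genes of other BAF, PBAF and ncBAF subunits, each at its brightest probe set. Red passed as higher, blue as lower, open points did not pass, and grey bands give the spread of all tested genes; Bcl11a at 2.81 and Dpf1 at -1.29 are the called genes beyond the dotted 2-fold lines.

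Of 20 catalytic or core genes of other remodellers (the ISWI, CHD and INO80 families and related ATPases), all were tested, 1 was higher (Ino80) and 10 were lower. Over all genes 24.5% were higher and 24.3% lower, and 7.23% and 6.20% past 2-fold. The median log2 difference was -0.22 over the remodellers and -0.01 over all genes. Centring arrays on their medians moved the all-gene median to 0.14, and the remodellers were not counted again under it. The call past 2-fold was Smarca1 (SNF2L), an ISWI ATPase on the X chromosome. It read 544, 572 and 527 units in heterozygous and 109.9, 80.9 and 99.0 units in null arrays, far apart in every array (log2 difference -2.51, SE 0.15, limma adjusted p over genes 2.68e-07). No difference between these remodellers and the BAF members was tested.

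Markers of the ES cell state and of other cells were read beside these results. The summed intensity of 6 ES cell markers, with Pou5f1, Nanog and Sox2, was 48787 to 50745 units in heterozygous and 49598 to 50844 in null arrays. Of these 6, only Fgf4 passed, as higher. Of 8 neural markers, 5 were tested, and the list summed to 1228 to 1440 units in heterozygous and 1727 to 1997 in null arrays; 3 were higher (Pax6, Sox1, Map2) and Neurog2 was under 32 units in every array. The 6 primitive endoderm markers, all tested, summed to 888 to 1318 and 332 to 390.2 units, with 2 lower (Gata6, Dab2). Dab2 alone (means 683 and 155 units) was the largest part of these sums. The others, Gata4 (log2 difference -0.09), Pdgfra (-0.23), Sox17 (-1.42) and Foxa2 (-1.36), did not pass. Of 5 trophectoderm markers, 4 were tested and 4 were lower (Krt8, Krt18, Cdx2, Eomes), with Elf5 under 32 in every array. The list summed to 9971 to 10743 and 4726 to 4897 units. Nearly all of both sums came from the keratins Krt8 (means 4700 and 2705 units) and Krt18 (5244 and 1896). Eomes averaged 244 and 166 units and Cdx2 72.8 and 11.9, with every null array of Cdx2 under 32. The 8 fibroblast markers, for cells of a feeder layer, summed to 456 to 494 and 473 to 613 units. Of 6 tested, 1 was higher (Dcn) and 2 lower (Col1a1, Thy1), and Postn was under 32 units in every array. Col1a1 averaged 70.0 units in heterozygous and 6.62 in null arrays. Both Col1a1 and Cdx2 met the filter through their heterozygous arrays alone. The filter thus favoured a lower call for these 2, and null values under 32 units limit the size. The part of these markers in the subunit differences was not tested.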

How the data were processed

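The deposited values are linear intensities, 1 for each probe set, per the file headers and the values themselves; on every array their mean after trimming 2% at each end was 500 units. GCRMA is the only tool in the submitters' processing notes, and how it was applied is not given in the sources used here. Values were turned into log2, with any at or under 1 set to 1. Control probe sets, 64 in number, were not tested. Of the others, 34945 carried 1 gene symbol, 932 several and 9160 none, and 0 symbols changed when updated through RefSeq (GRCm38.p6). A gene was represented by its brightest probe set that passed the filter. Tests were two-sided, with line as the only term, in limma 3.58.1 under R 4.3.3. There lmFit was followed by eBayes with a trend on intensity, and by Benjamini-Hochberg adjustment over all probe sets or all genes tested. The procedure was tested on simulated data with independent noise, few changed probe sets and no differences between cultures. In these arrays many probe sets were called, so that setting is unlike them and does not vouch for the calls. Fold changes come from means of log2 values. All arrays carry 1 day of analysis, and no batch is known. Replicate numbers do not pair the arrays by the labels; the correlations of same-numbered residuals were 0.03, 0.03 and 0.08.

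The members and all gene lists were chosen with earlier results of these data known, Smarcc2 among them, so no count over them is independent evidence. Named are all members, the other subunits that passed, by size up to 8, with Actl6a, Actl6b, Dpf2 and Dpf3 whatever their values, up to 4 remodellers past 2-fold, and Dicer1; markers and Ino80 are named to say which passed. There were 17 alternatives, covering filters, normalization, a floor, variance priors, the replicate block, leaving out probe sets with the suffix _s_at, _x_at or _a_at, array weights, the mean of a gene's probe sets and leaving out each array. The number of arrays limits the precision.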

Additional observations from a re-analysis of the deposited data

How the results depend on the processing

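The number of members changed as genes was 7 in 15 of the 17 alternatives, 6 without probe sets whose suffix is _s_at, _x_at or _a_at, where no tested probe set of Smarcb1 remained, and 5 with the mean of a gene's probe sets. Smarcc2 kept its direction and passed in all 17, at log2 differences of 1.003 to 1.72, as did Smarcd3 (-1.72 to -1.38), Smarcd1 (-1.14 to -0.89), Arid1a (-0.52 to -0.32) and Smarcc1 (-0.44 to -0.25). Smarcc2 met the filter of log2 7 through its null arrays alone, and Smarcd3 through its heterozygous arrays alone. For these genes that alternative is no independent check of the direction. With the replicate block the members changed stayed at 7 and the other subunits changed went from 10 to 12. Residuals, the values less the mean of their line, were correlated between arrays of different lines. Each array's residuals correlated best with those of the same-numbered array of the other line, at 0.03 to 0.08. Residuals of a line cancel out by construction, so these correlations are not independent of each other. Whether they exceed chance was not tested, and the design gives no such pairing. The other subunits changed numbered 7 with eBayes without an intensity trend. The log2 ratio of Smarca2 to Smarca4 was -0.019 with values under 32 raised to 32. It ran from -0.63 to 0.79 when each array was left out in turn, and the cause was not tested. The gene Phf10, counted as lower, was -0.20 at its brightest probe set and 0.38 as the mean of its probe sets. Its probe sets passed in opposite directions, 1449085_at at -0.20 (limma adjusted p 0.0302) and 1435774_at at 0.96 (limma adjusted p 0.00358). Over single genes, member probe sets and alternatives, 694 values kept their direction and side of the threshold, 32 lost the call, 9 gained it and 34 changed sign, of which 33 passed the threshold under neither analysis; Phf10 was the other. These are given by value or, where arrays were left out, by range. With array weights Smarca2 was -0.41 (probe set 1452333_at -0.35), Smarca4 -0.018 (1426804_at -0.013) and Bicral -0.022, which was -0.016 with quantile normalization. With arrays centred on their medians 1426805_at was 0.11, 1435856_x_at 0.081, Bcl7a 0.045 and Bcl7c 0.051. As the mean of probe sets Smarca4 was -0.0025, Pbrm1 -0.14 and Dpf2 -0.10. The probe sets of Pbrm1 differed in sign. Its brightest, 1426877_a_at, was 0.16 (limma adjusted p 0.252), while 1426878_at was 0.37 (0.0424) and 1427266_at was -0.95 (3.2e-05). Leaving out each array in turn gave -0.62 to 0.87 for Smarca2 and 1452333_at, -0.041 to 0.079 for Smarca4 and 1426804_at, -0.0096 to 0.55 for Arid1b and 1455979_at, -0.22 to 0.12 for 1426805_at, -0.24 to 0.17 for 1435856_x_at, -0.073 to 0.41 for 1459824_at, -0.022 to 0.12 for Brd7, -0.24 to 0.038 for Bcl7a and -0.075 to 0.068 for Bicral. The cause was not tested. A filter at a log2 of 7 left no value for the ratio of Smarca2 to Smarca4. Signal near 32 units limits what can be said of Smarca2, Dpf3 and Actl6b. It also limits the size given for Smarcc2, through heterozygous replicate 1, and for Smarcd3, through the null arrays.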
